A study of Mus musculus with 4 samples.

Results

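The 50 genes described here encode proteins that build, cap, cut, crosslink or steer actin filaments. They were followed in alveolar macrophages, which patrol the air spaces of the mouse lung and engulf particles there. The genes were chosen by name, and the actin genes themselves were left out. The assay was SAGE (serial analysis of gene expression). Each count is 1 sequenced tag of 21 bases that lay beside a CATG site, listed with a gene symbol. Of the 50 genes, 48 stood in the tag tables under their own symbols, among 11754 symbols in all, and 46 of them had counts, among 7236 symbols with counts. A fit over the 2979 genes with enough counts tested 42 of them. The tags of Myl12a stood under its older symbol 2900073G15Rik and are given separately, and no tag of Myl6 was listed.

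The day 21 group consisted of 2 libraries from wild-type BALB/c mice with lung metastasis, taken 21 days after an intravenous dose of BNL, a liver cancer cell line of the mouse. The untreated group consisted of 2 libraries from wild-type BALB/c mice that were not injected and had no metastases. Neither ages nor the number of mice behind a library are given in the sources used here, so the spread between libraries may be technical. No sham-injected mice are described, so the injection and the metastases cannot be told apart.

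Actin filaments push the membrane forward during crawling and close it around a particle during phagocytosis. The Arp2/3 complex starts new branches on existing filaments when it is switched on by proteins of the WASP and WAVE families. Thymosins and profilin hold the supply of monomers, cofilin and gelsolin cut filaments, capping proteins stop their growth, and small GTPases such as Rac1 and Cdc42 set where this happens.

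The libraries held 1783814 and 1630776 tags on day 21, against 1962569 and 2198563 tags in untreated mice. The actin regulators took 2.30% and 2.18% of the tags in day 21 replicates 1 and 2, against 2.06% and 2.97% in untreated replicates 1 and 2. The exact Clopper-Pearson 95% intervals were 2.28% to 2.33% and 2.16% to 2.20% on day 21, against 2.04% to 2.08% and 2.94% to 2.99% in untreated mice, and they cover counting error only. Day 21 thus lay inside the range of the untreated libraries. No tag has a count of 1, so a count of 0 can stand for a tag read 1 time. Markers of alveolar macrophages were present in every library, with 14 of 15 genes counted and summed levels of 1707 and 3842 CPM (counts per 1000000 tags of the TMM-scaled library) on day 21 and 1231 and 2936 CPM in untreated mice. Chil3 and Ear2 were the most abundant of them. Of the 12 tested, 0 passed, with 4 positive and 8 negative log2 changes and a median of -0.59. Before adjustment, 4 had a p under 0.05, Chil3 with a log2 change of 1.33 and Krt79, Fabp1 and Plet1 with -2.27, -1.54 and -1.43. Markers of interstitial or monocyte-derived macrophages summed to 2613 and 3940 CPM on day 21, against 74.1 and 146.3 CPM in untreated mice, with 12 of 13 genes counted and Apoe and Cd63 the most abundant. Of the 9 tested, 6 passed, all higher on day 21, against 0.739% of all genes. All 9 log2 changes were positive, with a median of 4.49. Markers of lung epithelium summed to 33.1 and 51.3 CPM against 83.9 and 158.5 CPM, with 4 of 13 genes counted and Sftpa1, Krt8, Krt18 and Cdh1 at 0. Of the endothelial, B or plasma cell and dendritic cell markers, 3 of 6, 4 of 8 and 1 of 8 were listed, all at 0 throughout. Neutrophil markers summed to 74.3 and 275.6 CPM on day 21, against 9.33 and 154.9 CPM in untreated mice, with 4 of 9 genes counted. Most of this sum was Camp, at 69.1 and 250.6 CPM on day 21 and 9.33 and 140.1 CPM in untreated mice. Cxcr2 and Mmp9 were at 0, so the sum is close to that of a single gene. Red blood cell markers summed to 23.4 and 61.9 CPM against 32.9 and 149.1 CPM, all from Hba-a1, with Hba-a2 and Alas2 at 0. Pf4, the 1 platelet marker with counts, passed with a log2 change of 4.64. Tppp3, 1 of 2 tested ciliated cell markers, passed with -2.90. In such bulk libraries a change in the mix of cells and a change in RNA per cell look alike, and the part of these markers in the results below was not tested.

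Among the 42 tested actin regulators, 0 rose and 0 fell on day 21 at a Benjamini-Hochberg adjusted p under 0.05 over all genes, by the quasi-likelihood test of edgeR. Over all 2979 genes 0.739% passed in either direction, with 0.671% higher and 0.0671% lower. Before adjustment, 1 actin regulator had a p under 0.05, Zyx, against 5.64% of all genes. DESeq2 passed 0 of the 42 actin regulators and 25 of all genes. The median log2 change (day 21 minus untreated) was -0.07 for the actin regulators and -0.07 for all genes tested, with 19 positive and 23 negative. The groups did not overlap for 9 of the 42, or 21.4%, against 31.2% of all genes. These 9 were Arpc1b, Coro1c, Gsn, Capza2, Dstn, Myl12b, Zyx, Actn1 and Rac2. The standard errors of the log2 changes ran from 0.49 to 0.86, so each test leaves room for a sizeable change in either direction.

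**Figure D1:**
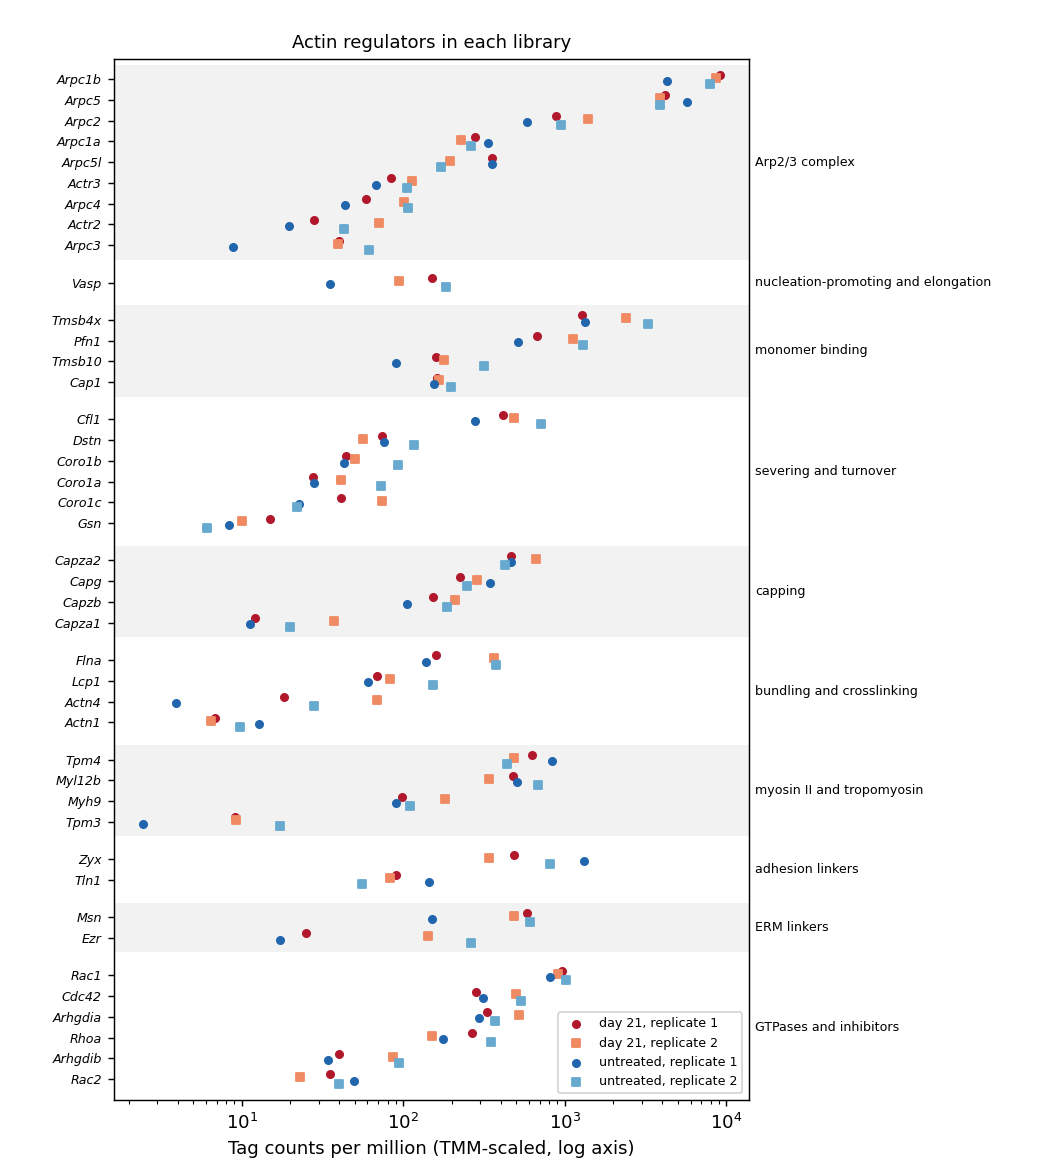
Level of each tested actin regulator in CPM on a log axis, by role, with 1 point per library (red and orange for day 21, dark and light blue for untreated, circles for replicate 1 and squares for replicate 2). Arpc1b and Arpc5 stand above all others in every library, and the untreated replicate 2 square is the highest point for 21 of the 42 genes.

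The untreated libraries differed from each other for many of these genes. Untreated replicate 2 held the highest value of the 4 libraries for 21 of the 42 genes (against 25.7% of all genes tested), and untreated replicate 1 the lowest for 24 (57.1%, against 32.5%). The median ratio of replicate 2 to replicate 1 was 1.16 on day 21 and 1.73 in untreated mice, against 0.959 and 1.05 over all genes. These are descriptions of these libraries, and the 2 untreated libraries alone do not show which of them is typical.

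**Figure D2:**
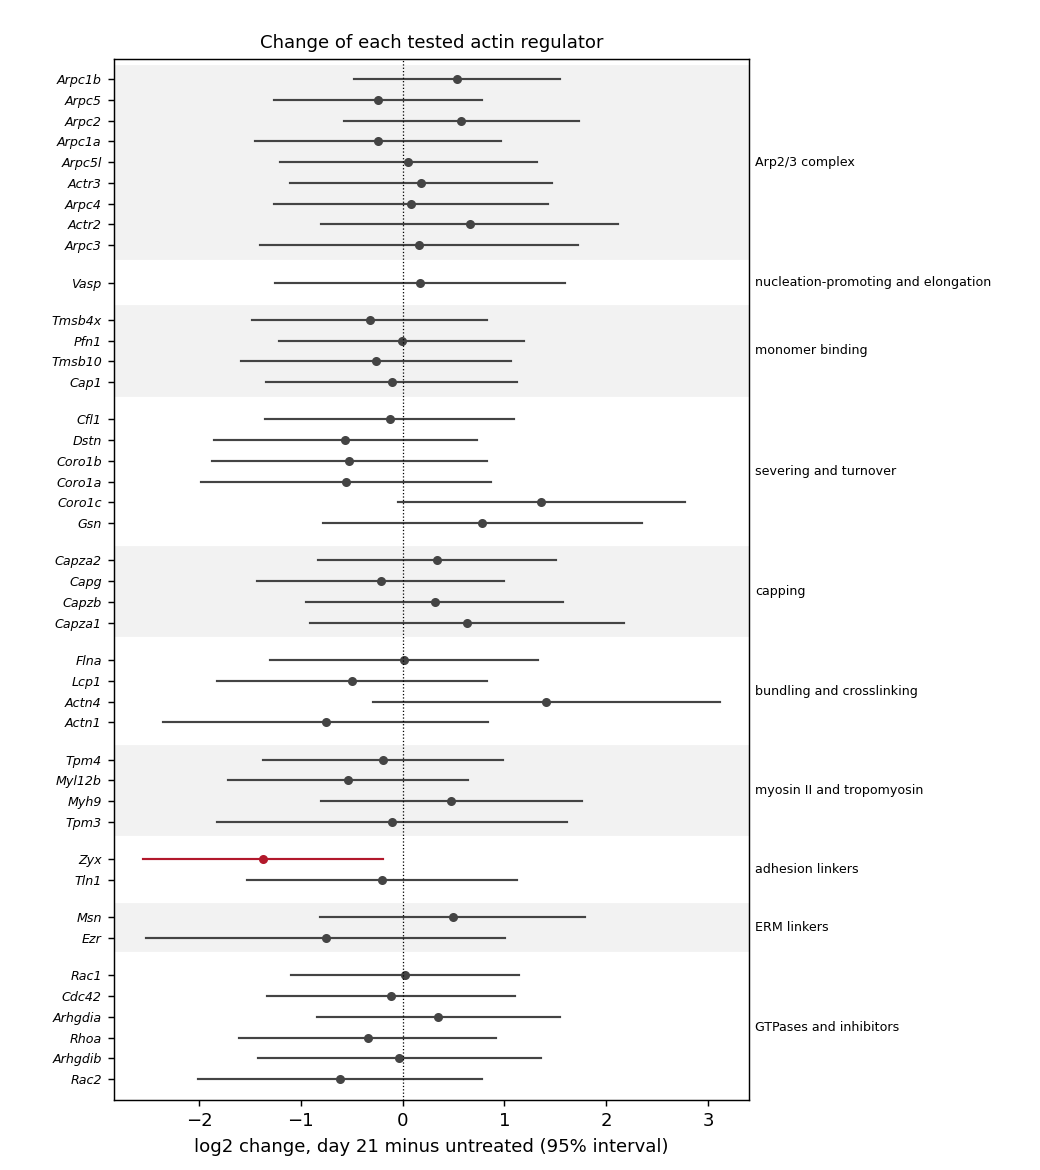
Log2 change (day 21 minus untreated) of each tested actin regulator with its 95% interval from the edgeR fit, by role. Zyx, in red, is the 1 gene whose interval leaves out 0, at -2.55 to -0.19, and its p adjusted over all genes is 0.690.

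The genes of the Arp2/3 complex made up 64.0% and 57.9% of the actin regulator counts on day 21, against 57.4% and 50.7% in untreated mice. All 9 were tested and 0 passed, with 7 positive and 2 negative log2 changes and a median of 0.16. Arpc1b, a propeller-shaped subunit of the complex, had the highest mean level of all the actin regulators, at 9129.9 and 8603 CPM on day 21 and 4322 and 7941 CPM in untreated mice. Both day 21 values lay above both untreated ones, by a small margin over untreated replicate 2 (log2 change 0.53 ± 0.49 SE, adjusted p = 0.999). Arpc5, which holds the complex together near its nucleating core, was at 4175 and 3893 CPM on day 21 and at 5670.4 and 3882 CPM in untreated mice. Its groups overlapped (log2 change -0.24 ± 0.50 SE, adjusted p = 0.999). A single tag carried 98.8% of the Arpc1b counts and 99.7% of the Arpc5 counts. These tags are shown because each carries nearly all counts of its gene, with the NlaIII site in capitals, and positions are from a match to GENCODE M21 transcripts on GRCm38.
Arpc1b: CATGagcatctgggacgtgaagagc
Arpc5: CATGatttcccgaggacgtcttcag
The Arpc1b tag runs across the junction of exons 9 and 10 in the coding sequence, at chr5:145127705-145127823 on the plus strand, with 4 more CATG sites downstream in the transcript. It also matches a transcript of Gm5637, so its counts are not certain to be Arpc1b alone. The Arpc5 tag lies in the 3' UTR at chr1:152775159-152775183 on the plus strand, at the last CATG site of its transcript.

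The balance of the subunits differed between libraries. Arpc1b gave 60.7% and 58.8% of the Arp2/3 counts on day 21, against 37.9% and 58.8% in untreated mice. Arpc5 gave 27.8% and 26.6% on day 21, against 49.7% and 28.7% in untreated mice. Untreated replicate 1 was thus the 1 library in which Arpc5 exceeded Arpc1b, at 1.31 Arpc5 tags per Arpc1b tag. The other libraries held 0.457 and 0.453 on day 21 and 0.489 in untreated replicate 2.

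**Figure D3:**
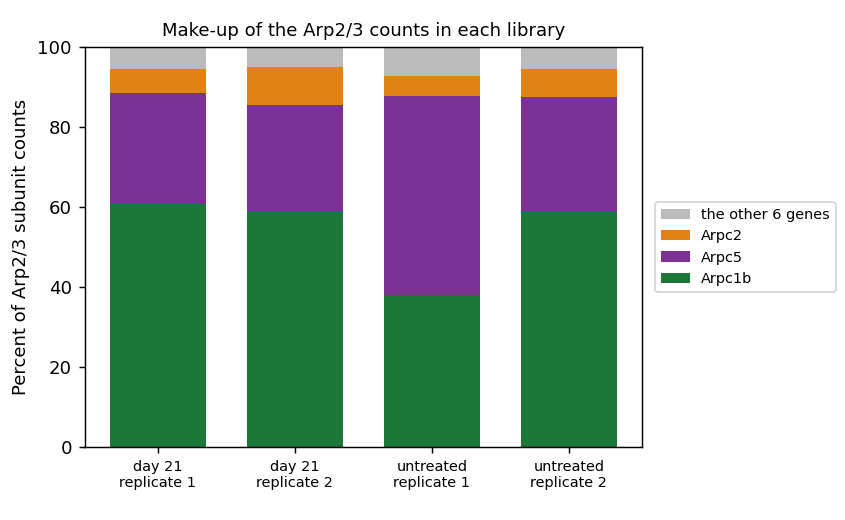
Percent of all Arp2/3 subunit counts given by Arpc1b, Arpc5, Arpc2 and the other 6 genes in each library. Arpc1b gives 58.8% to 60.7% in 3 libraries and 37.9% in untreated replicate 1, where Arpc5 gives 49.7%.

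Arpc2, which with Arpc4 forms the structural core of the complex, was at 887 and 1389.9 CPM on day 21 and at 581 and 943 CPM in untreated mice (log2 change 0.58 ± 0.56 SE, adjusted p = 0.999). The remaining subunits were far lower. Arpc3, Arpc4, Actr2 and Actr3 ran from 28.0 to 113.9 CPM on day 21 and from 8.84 to 106.6 CPM in untreated mice, although Actr2 and Actr3 are the actin-like proteins that seed the new filament. Since a tag counts a transcript and not its length, these levels compare genes without a length correction. They still depend on how well each CATG site is cut and on which tags are listed. The log2 changes of Actr2, Actr3, Arpc3 and Arpc4 were 0.66, 0.18, 0.16 and 0.08, and those of Arpc1a and Arpc5l were -0.24 and 0.06. Where the complex has alternative subunits, 1 form dominated in every library. Arpc1b took 97.1% and 97.4% of the Arpc1a and Arpc1b counts on day 21, against 92.8% and 96.8% in untreated mice. Arpc5 took 92.2% and 95.3% of the Arpc5 and Arpc5l counts on day 21, against 94.1% and 95.8% in untreated mice.

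Was and Wasf2, which switch the complex on, had few counts. Was, the WASP protein of blood cells, had 6 and 0 counts on day 21 and 3 and 9 counts in untreated mice. Wasf2, a WAVE protein, had 0 and 3 counts on day 21 and 0 and 7 counts in untreated mice. Neither had enough counts to be tested. Vasp, which elongates filaments at their growing end, was at 150.8 and 94.7 CPM on day 21 and at 35.3 and 182.6 CPM in untreated mice, so that the untreated libraries enclosed the day 21 ones (log2 change 0.17 ± 0.69 SE, adjusted p = 0.999). Without untreated replicate 2 its log2 change was 1.82, and without untreated replicate 1 it was -0.57.

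Of the 4 monomer-binding proteins 0 passed, with 4 negative log2 changes and a median of -0.18. In all 4 replicate 2 exceeded replicate 1 in both groups. Tmsb4x, thymosin beta 4, which keeps actin monomers in reserve, was at 1275 and 2402 CPM on day 21 and at 1342 and 3263 CPM in untreated mice. Pfn1, profilin 1, which feeds monomers to growing filaments, was at 668 and 1121 CPM on day 21 and at 515 and 1287 CPM in untreated mice. For both genes replicate 2 exceeded replicate 1 in each group and the groups overlapped (log2 changes -0.32 ± 0.56 and -0.01 ± 0.58 SE, both adjusted p = 0.999). Tmsb10, the related thymosin, was at 158.8 and 178.7 CPM on day 21 and at 89.8 and 314.6 CPM in untreated mice. The fourth member, Cap1, which recycles monomers, ran from 161.7 to 166.6 CPM on day 21 and from 155.6 to 197.8 CPM in untreated mice. Tmsb4x held 88.9% and 93.1% of the counts of the 2 thymosins on day 21 and 93.7% and 91.2% in untreated mice.

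Among the proteins that cut and recycle filaments, 0 of 6 tested genes passed, with 2 positive and 4 negative log2 changes and a median of -0.33. Cfl1, cofilin 1, the main severing protein of non-muscle cells, was at 415 and 486 CPM on day 21 and at 277 and 708 CPM in untreated mice. Its untreated libraries enclosed both day 21 libraries (log2 change -0.13 ± 0.60 SE, adjusted p = 0.999). Dstn, destrin, a relative of cofilin, was at 73.7 and 56.2 CPM on day 21 and at 76.1 and 116.0 CPM in untreated mice, with a log2 change of -0.56 ± 0.63 (SE, adjusted p = 0.999). Its groups did not overlap, though day 21 replicate 1 and untreated replicate 1 lay close together. Cfl2, the cofilin of muscle, had 2 and 0 counts on day 21 and 3 and 0 counts in untreated mice, which was too few to test. Gsn, gelsolin, which cuts and then caps filaments, was at 14.9 and 9.97 CPM on day 21 and at 8.34 and 6.13 CPM in untreated mice (log2 change 0.78).

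Coro1c, a coronin that binds filaments and the Arp2/3 complex, had a log2 change of opposite sign to those of Coro1a and Coro1b. It was at 41.1 and 74.1 CPM on day 21 and at 22.6 and 22.1 CPM in untreated mice, with 72 and 104 counts against 46 and 54. Both day 21 libraries lay above both untreated ones (log2 change 1.36 ± 0.68 SE, 95% interval -0.05 to 2.77, adjusted p = 0.922). With each library left out, the log2 change of Coro1c ran from 0.91 to 1.78. Coro1a, the coronin of white blood cells, was at 27.4 and 41.3 CPM on day 21 and at 28.0 and 72.7 CPM in untreated mice, and Coro1b was at 44.0 and 50.6 CPM against 42.7 and 93.2 CPM. The log2 changes of Coro1a and Coro1b, -0.55 and -0.52, did not pass, and the difference between Coro1c and these relatives was not tested. The tag with 81.4% of the Coro1b counts also matches a transcript of Ptprcap. Of the further coronins, Coro7 had a log2 change of 2.77 and Coro2a one of -0.31, and neither passed. Coro2a was chosen for mention after its values were seen. Most Coro1c counts, 90.6%, came from a tag in the 3' UTR at chr5:113844234-113844258 on the minus strand, with 3 more CATG sites downstream. It is shown because Coro1c had the largest positive log2 change, summed over tags, among the genes named by rule.
Coro1c: CATGtcagatctgtcagccagcgat

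Of the 4 capping proteins 0 passed, with 3 positive and 1 negative log2 changes and a median of 0.33. Capza2, an alpha subunit of the heterodimer that blocks the growing end, was at 464 and 665 CPM on day 21 and at 463 and 427 CPM in untreated mice (log2 change 0.34 ± 0.57 SE, adjusted p = 0.999). The groups did not overlap, although day 21 replicate 1 and untreated replicate 1 differed by less than 1 CPM. Capg, a capping protein abundant in macrophages, was at 225 and 286 CPM on day 21 and at 344 and 249.7 CPM in untreated mice, with overlapping groups (log2 change -0.22 ± 0.59 SE, adjusted p = 0.999). Capza2 took 97.5% and 94.7% of the counts of the alpha subunits Capza1 and Capza2 on day 21, against 97.6% and 95.5% in untreated mice. The log2 changes of Capza1 and of Capzb, the beta subunit, were 0.63 and 0.32.

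Of the bundling and crosslinking proteins, 4 were tested and 0 passed, with 2 positive and 2 negative log2 changes and a median of -0.24. Flna, filamin A, which links crossing filaments into a gel, was at 159.4 and 363 CPM on day 21 and at 138.9 and 377 CPM in untreated mice. Replicate 2 was more than 2-fold above replicate 1 in both groups, and the groups overlapped (log2 change 0.02 ± 0.64 SE, adjusted p = 0.999). Lcp1, L-plastin, the filament bundler of white blood cells, was at 68.6 and 82.6 CPM on day 21 and at 60.9 and 152.4 CPM in untreated mice (log2 change -0.50 ± 0.64 SE, adjusted p = 0.999). Actn4, alpha-actinin 4, had 32 and 96 counts on day 21 and 8 and 69 counts in untreated mice, or 18.3 and 68.4 CPM against 3.93 and 28.2 CPM. Its groups overlapped, and its log2 change of 1.41 ± 0.83 (SE) did not pass (adjusted p = 0.999). It was chosen for mention after its values were seen, because it was the 1 actin regulator that passed without untreated replicate 2 (log2 change 3.46, adjusted p = 0.0168), a fit in which 2.53% of all genes passed. Its log2 change was 0.21 without day 21 replicate 2, 0.61 without untreated replicate 1 and 2.13 without day 21 replicate 1. Its adjusted p over all settings ran from 0.0168 to 0.9999. Its relative Actn1 was at 6.86 and 6.41 CPM on day 21 and at 12.8 and 9.81 CPM in untreated mice (log2 change -0.76). The tag with 39.4% of the Actn1 counts also matches Actn4. It had 6 and 9 counts on day 21 and 4 and 9 counts in untreated mice. Fscn1, fascin, a bundler abundant in dendritic cells, was listed at 0 in all libraries with 5 listed tags. Its level could have been up to 7.63 counts per library, the largest count that leaves each listed tag at 0 or 1 reads with a probability of 5%.

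Myosin II pulls on filaments and tropomyosins coat them. Of the 4 tested genes of this group 0 passed, with 1 positive and 3 negative log2 changes and a median of -0.15. Tpm4, a tropomyosin of non-muscle cells, was at 622 and 488 CPM on day 21 and at 829 and 440.5 CPM in untreated mice, with overlapping groups (log2 change -0.19 ± 0.57 SE, adjusted p = 0.999). Myl12b, a regulatory light chain of myosin II, was at 479.9 and 339.6 CPM on day 21 and at 505 and 687 CPM in untreated mice. Both day 21 libraries lay below both untreated ones (log2 change -0.54 ± 0.57 SE, adjusted p = 0.999). With each library left out, the log2 change of Myl12b ran from -0.76 to -0.28. Myh9, the heavy chain, ran from 97.7 to 181.6 CPM on day 21 and from 90.3 to 109.9 CPM in untreated mice. The log2 change of Myh9 was 0.48 and that of Tpm3, a further tropomyosin, was -0.11.

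The 2 regulatory light chains can be mistaken for each other at the level of tags. Counted by RefSeq accession, Myl12a had 281 and 243 counts on day 21 and 276 and 763 counts in untreated mice (log2 change -0.42 ± 0.62 SE, adjusted p = 0.999 in the fit by current gene name). One of its tags differs from a Myl12b tag at 1 base, A19G in the direction Myl12b to Myl12a, counted from 1 at the C of CATG. Both are shown because they differ at this base alone, and both genes lie on chromosome 17.
Myl12b: CATGtttggggagaagctaaacggc
Myl12a: CATGtttggggagaagctgaacggc
The Myl12b form had 652 counts over the 4 libraries and the Myl12a form 222. The Myl12a form also matches a transcript annotated as Myl12b, and the most abundant Myl12a tag matches Myl12a, Myl12b and Gm2805, so the split between the chains is uncertain for these tags. Of the tags that match 1 chain alone, the most abundant had 2977 counts for Myl12b and 544 counts for Myl12a. All Myl12b tags with counts, the one shown above included, match Myl12b alone.

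Zyx, zyxin, an adaptor that recruits Vasp and alpha-actinin to focal adhesions and stressed filaments, had the largest negative log2 change of the 42 genes. It had 849 and 477 counts on day 21 and 2679 and 1995 counts in untreated mice, or 485 and 339.6 CPM against 1315 and 815 CPM. Both day 21 libraries lay below both untreated ones. The log2 change was -1.37 ± 0.57 (SE), with a 95% interval of -2.55 to -0.19. In the edgeR fit the unadjusted p was 0.0247 and the p adjusted over all genes was 0.690, so Zyx did not pass. With each library left out, its log2 change ran from -1.65 to -0.98. The most abundant tag carried 98.3% of the counts and lay at the last CATG site, in the 3' UTR at chr6:42358093-42358117 on the plus strand. A further tag in the coding sequence, at chr6:42357352-42357376, was also lower, with 3 and 4 counts on day 21 and 18 and 20 counts in untreated mice. They are shown because these separate sites of the transcript gave log2 changes of -1.39 ± 0.59 and -1.91 ± 0.93 (SE), and neither passed over all tags (adjusted p = 0.933 and 0.999).
Zyx, last site: CATGgcctacaagtattgaggctcc
Zyx, next site upstream: CATGcctgagcctggccgagacgag
Tln1, talin 1, which ties integrins to actin, was at 89.7 and 83.3 CPM on day 21 and at 143.3 and 55.6 CPM in untreated mice (log2 change -0.20 ± 0.64 SE, adjusted p = 0.999). Vcl, vinculin, was listed at 0 throughout with 3 listed tags, which allows up to 6.43 counts per library.

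The ERM proteins tie actin to the plasma membrane. Msn, moesin, the main ERM protein of white blood cells, was at 582 and 482 CPM on day 21 and at 149.7 and 606 CPM in untreated mice. Ezr, ezrin, best known from epithelia, was at 25.1 and 141.7 CPM on day 21 and at 17.2 and 263 CPM in untreated mice. In both genes the untreated libraries enclosed the day 21 ones, and neither passed (log2 changes 0.49 ± 0.63 and -0.75 ± 0.86 SE, both adjusted p = 0.999). The direction of Ezr turned with the libraries used, from -2.44 without day 21 replicate 2 to 2.30 without untreated replicate 2, and that of Msn ran from -0.19 to 1.85. Ezr had the widest standard error of the 42 genes. Of the most abundant epithelial markers, Krt19 had 24 and 56 counts on day 21 and 59 and 305 counts in untreated mice, and Epcam 34 and 7 counts against 109 and 66, and their part in the Ezr values was not tested. Rdx, radixin, had 0 and 2 counts on day 21 and 3 and 2 counts in untreated mice.

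Rac1, which drives sheet-like protrusions, was among the steadiest genes, at 956 and 908 CPM on day 21 and at 813 and 1020.3 CPM in untreated mice (log2 change 0.02 ± 0.54 SE, 95% interval -1.09 to 1.14, adjusted p = 0.999). Cdc42, which drives finger-like protrusions, was at 281 and 499 CPM on day 21 and at 313 and 533 CPM in untreated mice, with replicate 2 above replicate 1 in both groups (log2 change -0.12 ± 0.59 SE, adjusted p = 0.999). Rac2, the form restricted to blood cells, was much lower, with 35.4 and 22.8 CPM on day 21 and 49.6 and 40.0 CPM in untreated mice. Both day 21 values lay below both untreated ones (log2 change -0.62 ± 0.68 SE, adjusted p = 0.999). Rac1 thus held 96.4% and 97.6% of the counts of this pair on day 21 and 94.3% and 96.2% in untreated mice. Most Rac1 counts, 97.8%, came from a tag 17 CATG sites upstream of the last one. All Rac2 counts came from a single tag, 2 CATG sites upstream of its last one. The split between Rac1 and Rac2 thus depends on how well these sites are cut and on which tags are listed. Arhgdia, an inhibitor that keeps such GTPases in the cytosol, ran from 329 to 520.5 CPM on day 21 and from 294.5 to 371 CPM in untreated mice. Its relative Arhgdib ran from 40.0 to 86.2 CPM on day 21 and from 34.4 to 94.4 CPM in untreated mice. The log2 changes of Arhgdia, Arhgdib and Rhoa, the GTPase that drives contraction, were 0.35, -0.03 and -0.34.

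Which untreated library was used decided the direction of the group as a whole. Without untreated replicate 2 the median log2 change of the 42 genes was 0.56, against 0.00 for all genes, and without untreated replicate 1 it was -0.34 against -0.01. Without day 21 replicates 1 and 2 it was 0.06 and -0.12, against -0.13 and -0.08 for all genes. Of the 42 genes, 13 kept the sign of their log2 change whichever library was left out, among them Zyx, Coro1c, Arpc1b, Arpc2, Myl12b, Dstn, Rac2 and Actn4. These include the 9 genes whose groups did not overlap, whose sign could not turn this way, apart from the scaling. The share of all genes that kept their sign is not given here.

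**Figure D4:**
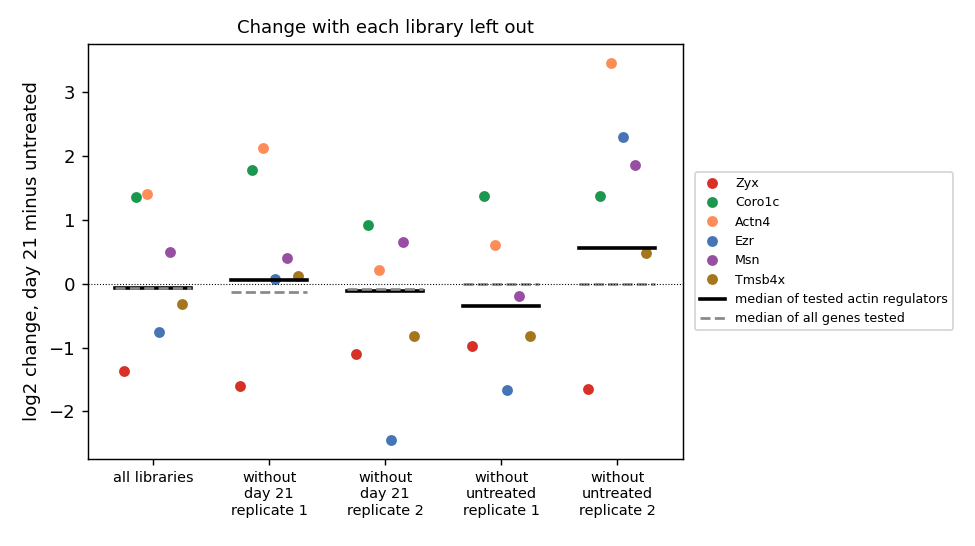
Log2 change (day 21 minus untreated) of 6 actin regulators with all libraries and with each library left out, beside the median of the 42 tested actin regulators (black) and of all genes tested (grey, dashed). Zyx stays between -1.65 and -0.98 and Coro1c between 0.91 and 1.78, while Ezr runs from -2.44 to 2.30.

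Single tags of the same gene did not always have log2 changes of the same sign. The 48 genes had 298 listed tags, of which 266 had counts and 104 could be tested. Of these 104, 0 passed over all 3907 tags tested, of which 0.358% passed, and 2 had an unadjusted p under 0.05, against 4.89% of all tags. DESeq2 also passed 0 of the 104. Of the 26 genes with at least 2 tested tags, 9 had tags of 1 sign and 17 had tags of both. The share of all genes with tags of both signs is not given here. Differences between tags of the same gene were not tested. Flna, on the X chromosome, had 9 tested tags, with log2 changes from -1.34 to 1.94. Its tag at the last site, at chrX:74223540-74223564 on the minus strand, had 30 and 13 counts on day 21 and 73 and 75 counts in untreated mice. A tag in exon 21, at chrX:74235944-74235968, had 20 and 31 counts on day 21 and 4 and 16 counts in untreated mice. Msn showed the same contrast between its last site, with 36 and 12 counts on day 21 and 76 and 73 counts in untreated mice, and a tag in exon 8, with 19 and 21 counts against 8 and 10. The pairs are shown because they come from the same genes and had log2 changes of opposite sign, and they were chosen for this contrast. The last-site and exon 21 tags of Flna were at -1.34 ± 0.74 and 1.94 ± 0.83 (SE). The last-site and exon 8 tags of Msn were at -1.21 ± 0.76 and 1.65 ± 0.79 (SE).
Flna, last site: CATGtcttctttggttctgggaggt
Flna, exon 21: CATGtggctccttgttttgatgcat
Msn, last site: CATGccccttttacttaatcttggg
Msn, exon 8: CATGcgtcggcgcaagcctgacacc

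This contrast ran through the whole table. Tags at the last CATG site of their transcript had a positive log2 change in 6 of 28 tested cases among the actin regulators (median -0.28) and in 32.2% of 1517 over all genes (median -0.27). Tags upstream of it were positive in 45 of 76 cases among the actin regulators (median 0.13) and in 60.0% of 2202 over all genes (median 0.19). The last-site tags held 39.7% and 38.6% of the actin regulator counts on day 21, against 60.2% and 45.1% in untreated mice. The place of a tag thus went with the sign of its log2 change. The share in untreated replicate 2, however, lay nearer to day 21 than to untreated replicate 1. The part of a tag's place in the changes of single genes was not tested beyond counting each kind alone. With last-site tags alone, 28 actin regulators were tested and 0 passed, with a median of -0.11. With upstream tags alone, 35 were tested and 0 passed, with a median of -0.11. Each kind of tag was scaled by TMM on its own, which takes out a shift shared by most tags of that kind. These medians therefore cannot show whether the place of a tag matters. Zyx was lower in both, at -1.13 and -2.95, while Msn was at -1.03 with last-site tags and 0.51 with upstream tags. The main tags of Arpc5 and Zyx lie at the last site, and those of Arpc1b, Coro1c, Ezr and Rac1 upstream of it.

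**Figure D5:**
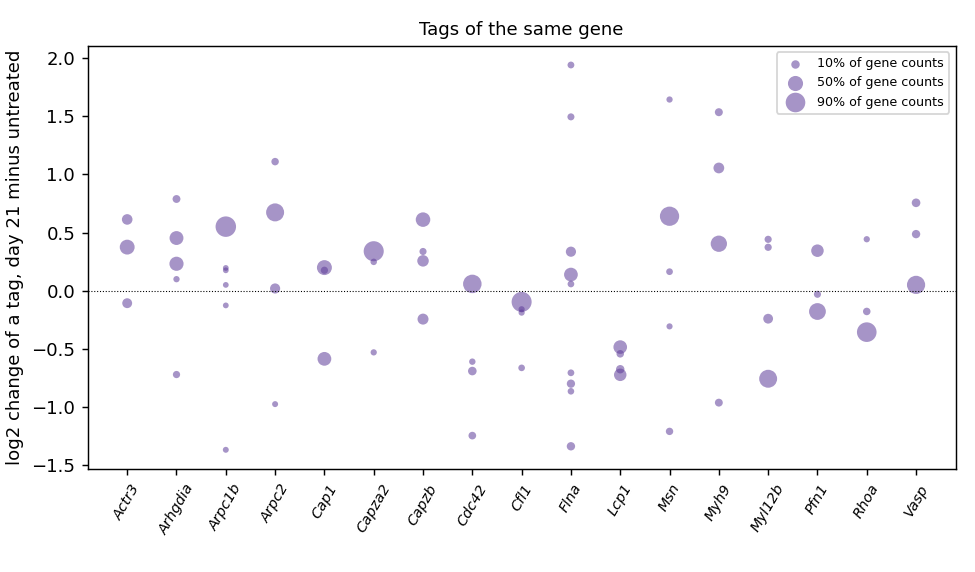
Log2 change (day 21 minus untreated) of each tested tag for the 17 actin regulators with at least 3 tested tags, with point area growing with the tag's share of the gene's counts. Flna spreads from -1.34 to 1.94, while the 4 tags of Lcp1 lie between -0.73 and -0.49.

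Other actin regulators were read from the same fit. Of 98 further genes, which include formins, WAVE complex subunits, unconventional myosins and guanine nucleotide exchange factors, 92 were in the tables, 69 had counts and 41 were tested. Of the 41, 0 rose and 0 fell, with 5 at an unadjusted p under 0.05, against 5.64% of all genes, and 0 passed by DESeq2. Their median log2 change was -0.14, with 15 positive and 26 negative, and the groups did not overlap for 17 of the 41, against 31.2% of all genes. The list was written with earlier results of these data known, so these counts are descriptions only. The most abundant were Rhog, a GTPase that acts upstream of Rac1, at 1676 and 1432 CPM on day 21 and 2019 and 1761 CPM in untreated mice, then Fermt3, an integrin activator of blood cells, and Fmnl1, a formin of white blood cells. Their log2 changes were -0.28, -0.11 and -0.62, and none of these 3 passed (adjusted p = 0.999 each).

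The 6 further regulators of smallest p split evenly in direction. Plec, plectin, a linker between actin and intermediate filaments, had 2 and 0 counts on day 21 and 38 and 17 counts in untreated mice (log2 change -4.22 ± 1.13 SE, adjusted p = 0.0904). With a library left out its fitted log2 change ran from -7.64, where the remaining day 21 library is at 0, to -3.36. It passed without untreated replicate 2 (log2 change -4.73, adjusted p = 0.0166) and without a filter on low counts (adjusted p = 0.0139), and its adjusted p over all settings ran from 0.0139 to 0.9998. Tagln2, a calponin-like filament binder, was at 1.14 and 6.41 CPM on day 21 and at 6.87 and 43.3 CPM in untreated mice (log2 change -2.76 ± 0.94 SE, adjusted p = 0.367), and with a library left out its log2 change ran from -4.36 without day 21 replicate 2 to -0.86 without untreated replicate 2. Abi3, a subunit of the WAVE complex, was at 331 and 593 CPM on day 21 and at 165 and 218 CPM in untreated mice (log2 change 1.27 ± 0.60 SE, adjusted p = 0.831). Brk1, a further subunit of that complex chosen for mention after its values were seen, was at 167.4 and 252.8 CPM on day 21 and at 197.8 and 260.3 CPM in untreated mice (log2 change -0.13). Ssh2, a phosphatase that switches cofilin on, had 37 and 53 counts on day 21 and 8 and 32 counts in untreated mice (log2 change 1.77 ± 0.77 SE, adjusted p = 0.740, 1.16 to 2.91 with a library left out). Coro7, a coronin of the Golgi, had 11 and 13 counts on day 21 and 0 and 5 counts in untreated mice (log2 change 2.77 ± 1.15 SE, adjusted p = 0.690). With a library left out, the fitted log2 change of Coro7 ran from 1.89 to 6.77, the highest against an untreated library at 0 alone. Evl, a relative of Vasp, was at 29.7 and 18.5 CPM on day 21 and at 56.4 and 64.97 CPM in untreated mice (log2 change -1.33 ± 0.68 SE, adjusted p = 0.938).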

How the data were processed

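Per the labels' protocols, cDNA was cut with NlaIII at CATG, tags were released with EcoP15I, amplified by PCR and sequenced. Each deposited table gives whole-number tag counts that the authors did not normalise, per the file headers, and the submitters' processing notes name mm9. How tags were assigned to genes is not given in the sources used here. Counts were summed per deposited symbol. Genes were kept by filterByExpr (minimum count 10, minimum total 15), scaled by TMM and tested with the edgeR 4.0.16 quasi-likelihood test in R 4.3.3, without covariates, with Benjamini-Hochberg adjustment over all genes. Single tags were tested likewise. The fit left 2 residual degrees of freedom, and edgeR's common coefficient of biological variation was 0.482. CPM are relative to the TMM-scaled library. The procedure was tested on simulated data. Tags were matched to GENCODE M21 transcripts on GRCm38, from which coordinates come, and no coordinates of mm9 are given. Of the 46 members with counts, 39 had a most abundant tag that matched 1 gene alone. Those of Actn1, Actr3, Arpc1b, Capza1, Coro1b, Tmsb10 and Tpm3 also matched a transcript of another gene. Named by rule were the 2 members of highest mean CPM in each role, and any with an adjusted or unadjusted p under 0.05, or with groups that do not overlap and a log2 change of at least 1 in size. Of the further regulators, the 6 of smallest p and the 3 of highest mean CPM were named. The members and the gene lists were chosen with earlier results of these data known. Alternatives were other scalings, no filter, DESeq2 1.42.0, a robust prior, a replicate block, other ways to sum tags and each library left out. The summary of the GTPase group as a whole is not reported here.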

Additional observations from a re-analysis of the deposited data

How the results depend on the processing

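The count of actin regulators past the threshold was 0 under every setting tried except without untreated replicate 2, where it was 1 (Actn4), so it ran from 0 to 1 with a library left out. The count over all genes, 22, was 9 with total counts alone, 41 with no filter on low counts, 9 with the most abundant tag only, 6 with last-site tags only and 1 with upstream tags only, and ran from 9 to 81 with a library left out. The further actin regulators passed 0, but 1 (Plec) with no filter, and 0 to 1 with a library left out. The last-site and upstream settings were chosen after seeing the data. Total counts alone put the median of all genes at -0.29, against -0.07 with TMM. With the replicate number as a block, 37 genes and 0 actin regulators passed. The 2 pairs share only a number (correlation of their deviations 0.54), and Cfl1 turned to 0.019 and Pfn1 to 0.087 under the block. Flna was at -0.27, Rac1 at -0.21 and Vasp at -0.067 with total counts alone. Pfn1 was at 0.015 with median-of-ratios factors and with DESeq2, 0.012 with no filter and 0.039 with upper-quartile scaling. With the most abundant tag only, Cdc42 was at 0.046 and Vasp at -0.049. With last-site tags only, Flna was at -1.15, Msn at -1.03, Capg at 0.047, Tln1 at 0.068, Tpm4 at 0.052 and Fermt3 at 0.066. With upstream tags only, Flna was at -0.044, Pfn1 at 0.091, Rac1 at -0.21 and Fermt3 at 0.77. The cause was not tested. With each library left out, the median of the actin regulators ran from -0.34 to 0.56. Over the same fits Arpc5 ran from -0.47 to 0.057, Capg from -0.40 to 0.036, Cdc42 from -0.56 to 0.34, Cfl1 from -0.65 to 0.73, Ezr from -2.44 to 2.30, Flna from -0.66 to 0.94, Lcp1 from -1.01 to 0.34 and Msn from -0.19 to 1.85. Pfn1 ran from -0.52 to 0.82, Rac1 from -0.13 to 0.22, Tln1 from -0.70 to 0.64, Tmsb4x from -0.83 to 0.48, Tpm4 from -0.56 to 0.34, Vasp from -0.57 to 1.82, Fermt3 from -0.36 to 0.22 and Fmnl1 from -1.51 to 0.11. Of the 20 actin regulators named by rule, 6 kept their sign under all settings in which they were tested (Zyx, Coro1c, Arpc1b, Dstn, Capza2 and Myl12b). The groups of these 6 did not overlap, so leaving out 1 library could not turn their sign, apart from the scaling. With last-site tags only, Arpc1b, Capza2 and Coro1c were not tested. Arpc1b and Capza2 had no counts at a last site, and Coro1c had too few.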
